A study of Mus musculus with 16 samples.

Results

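The stathmin family of the mouse comprises 4 genes, Stmn1, Stmn2, Stmn3 and Stmn4, which were chosen by name and matched to the deposited table by mouse Entrez number (16765, 20257, 20262 and 56471). All 4 were found among 36528 gene identifiers, and all 4 passed the filter on low counts that left 19391 genes for testing. Polyadenylated RNA from whole mouse retina was sequenced 3 days after the optic nerve had been crushed, which severs the axons of retinal ganglion cells behind the eye. Mice received GNE-3511, a small-molecule inhibitor of dual leucine zipper kinase (DLK), at 75 mg/kg given 60 and 68 h after injury, or the vehicle MCT. The 4 groups were crushed retina with the DLK inhibitor (crushed DLKi, 5 libraries), uncrushed retina with the DLK inhibitor (uncrushed DLKi, 5 libraries), crushed retina with vehicle (crushed vehicle, 3 libraries) and uncrushed retina with vehicle (uncrushed vehicle, 3 libraries). The labels state 5 mice per drug but not which retinas came from the same animal, and they name no strain, age or engineered allele. The p-values below therefore measure only the spread between these libraries.

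Stathmins are small phosphoproteins that bind tubulin dimers, the building blocks of microtubules, and so keep tubulin from polymerising or promote the shortening of existing microtubules. Stmn1, also called stathmin or Op18, is cytosolic and is known from dividing cells as well as neurons. Stmn2 (SCG10), Stmn3 (SCLIP) and Stmn4 (RB3) are neuronal relatives that carry an extra amino-terminal stretch, whose palmitoylated cysteines hold them on Golgi membranes and transport vesicles. Phosphorylation by kinases such as JNK weakens their hold on tubulin. DLK is the axonal kinase at the head of a JNK cascade that is activated by axon injury. Stmn2 is best known for its abundance in growing and regenerating axons and for the rapid loss of its protein from cut axons, and JNK is known to promote its turnover.

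The exon that sets the neuronal members apart is shown first, because it defines the family's split. The transcripts of Stmn2, Stmn3 and Stmn4 each hold a 96-base exon near the start of the coding sequence, and the Stmn1 transcript holds none of that length. The 3 sequences follow with their in-frame cysteine codons in capitals. They lie on GRCm38 at chr3:8541841-8541936 (exon 2, plus strand), chr2:181309147-181309242 (exon 2, minus strand) and chr14:66355586-66355681 (exon 3, plus strand) and are read from the GENCODE transcripts.
Stmn2: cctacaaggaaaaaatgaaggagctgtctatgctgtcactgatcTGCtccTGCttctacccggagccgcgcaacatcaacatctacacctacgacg
Stmn3: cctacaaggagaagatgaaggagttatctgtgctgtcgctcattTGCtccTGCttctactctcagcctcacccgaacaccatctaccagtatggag
Stmn4: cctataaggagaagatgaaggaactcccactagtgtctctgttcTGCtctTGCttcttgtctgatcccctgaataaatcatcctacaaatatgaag
The pair of cysteines stood at codons 22 and 24 in Stmn2, codons 22 and 24 in Stmn3 and codons 20 and 22 in Stmn4. Over the 96 bases Stmn2 and Stmn3 were 75% identical, Stmn2 and Stmn4 65.6%, and Stmn3 and Stmn4 66.7%. The coding sequence of Stmn1 held no cysteine codon at all.

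What the 4 genes share is the tubulin-binding core, encoded in part by a 192-base exon that all 4 transcripts hold. Its most alike stretch of 60 bases is printed with the bases common to all 4 genes in capitals. A base in small letters can still be shared by some of the genes, as most are between Stmn1 and Stmn2. On GRCm38 the 4 stretches lie at chr4:134472858-134472917 (exon 4, plus strand), chr3:8554846-8554905 (exon 4, plus strand), chr2:181307294-181307353 (exon 4, minus strand) and chr14:66357900-66357959 (exon 5, plus strand).
Stmn1: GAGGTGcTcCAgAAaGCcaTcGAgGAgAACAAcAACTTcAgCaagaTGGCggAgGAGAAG
Stmn2: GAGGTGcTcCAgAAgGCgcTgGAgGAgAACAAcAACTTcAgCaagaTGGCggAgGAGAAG
Stmn3: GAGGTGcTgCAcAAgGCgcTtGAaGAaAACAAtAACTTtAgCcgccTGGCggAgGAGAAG
Stmn4: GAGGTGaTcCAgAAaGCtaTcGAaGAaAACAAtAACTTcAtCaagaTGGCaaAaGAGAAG
In this window 41 of 60 bases were common to all 4 genes, against 111 of 192 (57.8%) over the whole exon. Between pairs of genes the exon was 69.8% to 79.2% identical, with Stmn3 and Stmn4 least alike and Stmn1 and Stmn4 most alike. Even so, no stretch of 50 bases, the length of the reads, was shared between the family's members.

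The last set of sequences marks where proline-directed kinases, the class to which JNK belongs, could act: a serine codon followed by a proline codon. Such pairs are in capitals in the stretches below, which lie at chr4:134470717-134470779 (exon 3, plus strand), chr3:8545632-8545688 (exon 3, plus strand) and chr2:181308781-181308843 (exon 3, minus strand) of GRCm38.
Stmn1: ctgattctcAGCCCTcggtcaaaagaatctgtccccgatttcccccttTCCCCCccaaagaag
Stmn2: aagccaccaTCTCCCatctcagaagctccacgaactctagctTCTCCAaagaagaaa
Stmn3: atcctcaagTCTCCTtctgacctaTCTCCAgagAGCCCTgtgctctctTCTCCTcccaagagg
Counted from the start codon, the serine codons were 25 and 38 in Stmn1, 62 and 73 in Stmn2, and 60, 65, 68 and 73 in Stmn3. The Stmn4 transcript used here held no such pair. A pair of codons is a description of the sequence and not evidence of phosphorylation, which RNA sequencing does not measure.

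**Figure D1:**
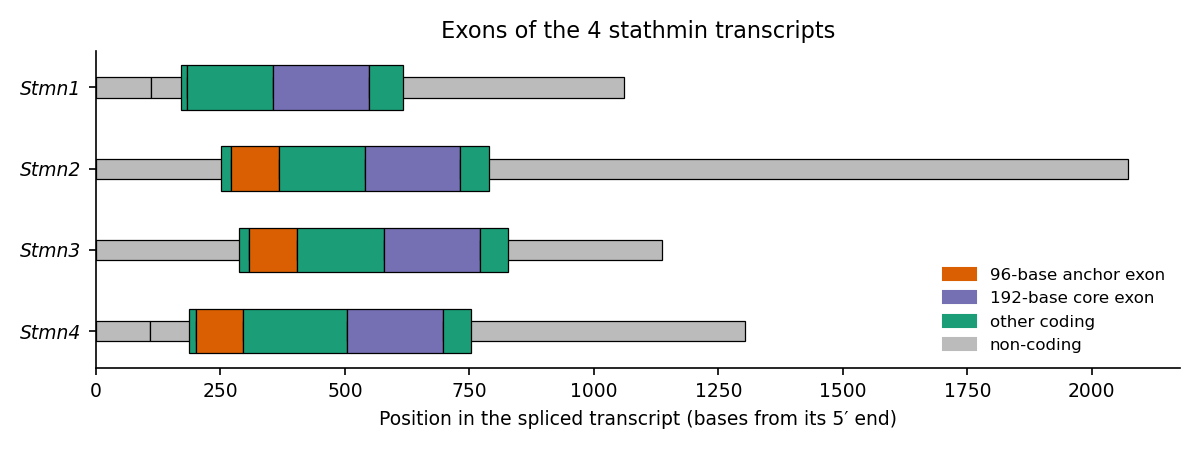
Exons of 1 GENCODE transcript of each stathmin gene, drawn to scale along the spliced transcript (x axis, bases from its 5′ end), with coding exon parts as tall boxes and non-coding parts as low ones. The 96-base anchor exon is present in Stmn2, Stmn3 and Stmn4 and absent from Stmn1, and the 192-base core exon is present in all 4.

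The genes lie apart in the GRCm38 genome, by their RefSeq spans. Stmn1 spans chr4:134468320-134473843 on the plus strand, Stmn2 chr3:8509527-8561604 on the plus strand, Stmn3 chr2:181306459-181314500 on the minus strand and Stmn4 chr14:66344210-66361680 on the plus strand. Their transcripts, drawn in the exon plot, are 1060 bases long for Stmn1, 2073 for Stmn2, 1136 for Stmn3 and 1303 for Stmn4, with 5 exons each except 6 in Stmn4. No exon of Stmn2, Stmn3 or Stmn4 overlaps another annotated gene, and none of their 50-base stretches recurs in another gene's transcript. Stmn1 differs: 369 of its 1011 stretches of 50 bases (36.5%) also occur in other annotated genes, 351 of them in the annotated pseudogene Gm11223 on chromosome 4 and 18 in the microRNA gene Gm23634, which overlaps 66 bases of its exons. The deposited counts hold uniquely aligned reads, per the file headers, so reads from the stretches shared with Gm11223 may be missing and the level of Stmn1 may be understated. Gm23634 overlaps Stmn1 at the same place in the genome, so unique alignment alone would not remove reads there.

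Levels are given as nRPKM, the authors' length- and depth-normalised read count, from libraries of 22.4 M to 44.7 M counts. In all 16 libraries the order of the genes was Stmn3, Stmn2, Stmn4, Stmn1. Stmn3 had 105, 110.0, 90.5, 82.6 and 84.4 nRPKM in crushed DLKi retinas and 143, 109.9, 153, 130.0 and 107 nRPKM in uncrushed DLKi retinas, against 76.7, 98.6 and 75.5 nRPKM in crushed vehicle retinas and 93.0, 111 and 117 nRPKM in uncrushed vehicle retinas. Crushed retinas of either drug group tended to the low side, yet the ranges of crushed and uncrushed retinas overlapped with the inhibitor and with vehicle. Stmn2 had 38.6, 46.7, 35.2, 33.9 and 35.4 nRPKM in crushed DLKi retinas and 48.0, 38.7, 47.1, 44.1 and 37.0 nRPKM in uncrushed DLKi retinas, against 36.0, 39.3 and 29.9 nRPKM in crushed vehicle retinas and 28.8, 36.9 and 37.9 nRPKM in uncrushed vehicle retinas. The 4 groups of Stmn2 values overlapped throughout, and the uncrushed vehicle library with the lowest value is also the shallowest of the 16.

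Stmn4 had 17.9, 19.3, 11.7, 18.5 and 17.1 nRPKM in crushed DLKi retinas and 5.25, 5.15, 4.73, 5.61 and 4.82 nRPKM in uncrushed DLKi retinas, against 26.3, 35.3 and 24.0 nRPKM in crushed vehicle retinas and 8.35, 11.4 and 12.7 nRPKM in uncrushed vehicle retinas. Every crushed retina was above every uncrushed retina of its drug group, and every inhibitor retina was below every vehicle retina of its injury group. How many of all genes were apart in this way was not counted. Stmn1 was the least abundant member at 1.52 to 2.14 nRPKM in crushed DLKi retinas and 1.46 to 2.54 nRPKM in uncrushed DLKi retinas, against 1.55 to 1.93 nRPKM in crushed vehicle retinas and 1.56 to 2.18 nRPKM in uncrushed vehicle retinas. It rested on 43 to 115 counts per library, far fewer than the 277 to 2339 counts of Stmn4, the next in depth.

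**Figure D2:**
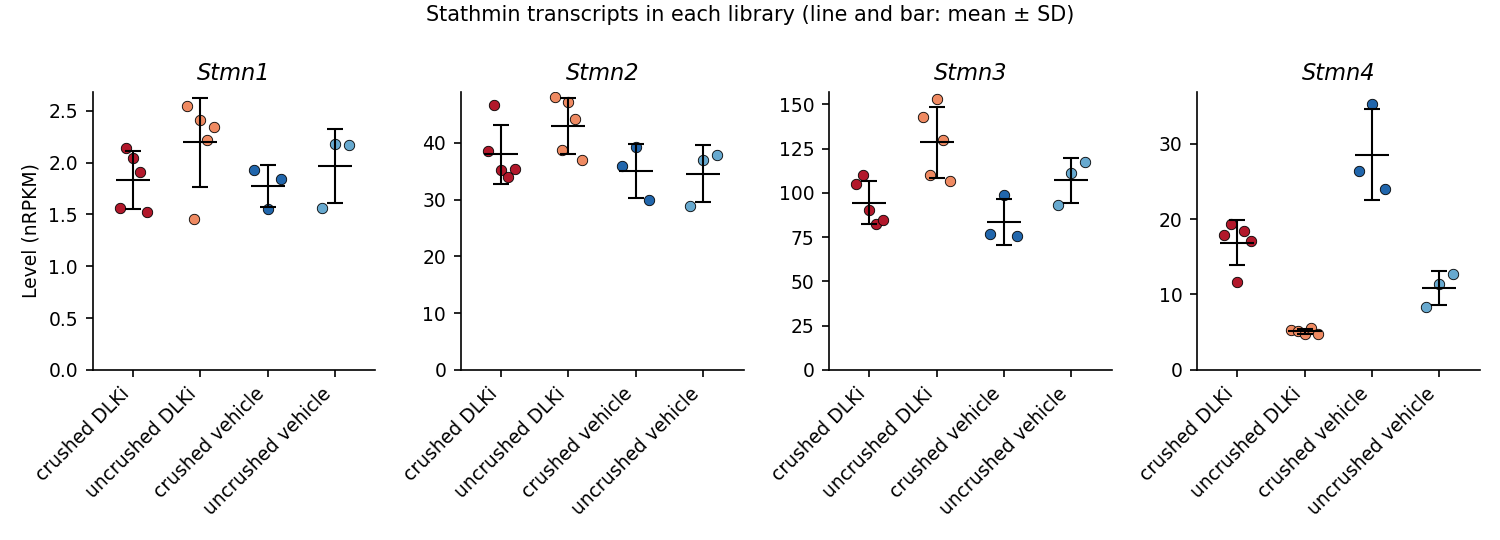
Level of each stathmin gene in nRPKM (y axis, from 0, scaled per gene) in each library (points) of the crushed DLKi, uncrushed DLKi, crushed vehicle and uncrushed vehicle groups, with the group mean and SD as line and bars (n = 5, 5, 3 and 3). The Stmn4 points of crushed retinas lie above those of uncrushed retinas of the same drug group, while the points of Stmn1, Stmn2 and Stmn3 overlap between the groups compared.

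By group, Stmn4 averaged 16.9 ± 3.01 nRPKM in crushed DLKi and 5.11 ± 0.353 nRPKM in uncrushed DLKi retinas (SD, n = 5 each), against 28.5 ± 6.003 nRPKM in crushed vehicle and 10.8 ± 2.23 nRPKM in uncrushed vehicle retinas (SD, n = 3 each). The order from high to low was thus crushed vehicle, crushed DLKi, uncrushed vehicle, uncrushed DLKi. Of these neighbours only crushed DLKi and uncrushed vehicle overlapped, through a single crushed DLKi library at 11.7 nRPKM. The means of Stmn3 were 94.5 ± 12.4 nRPKM in crushed DLKi and 128 ± 20.2 nRPKM in uncrushed DLKi retinas, against 83.6 ± 13.0 nRPKM in crushed vehicle and 107 ± 12.6 nRPKM in uncrushed vehicle retinas. Its order was uncrushed DLKi, uncrushed vehicle, crushed DLKi, crushed vehicle, and each group overlapped its neighbour. Stmn2 stood at 38.0 ± 5.19 nRPKM in crushed DLKi and 43.0 ± 4.96 nRPKM in uncrushed DLKi retinas, with vehicle means of 35.0 ± 4.78 nRPKM where the nerve was crushed and 34.5 ± 5.00 nRPKM where it was not. For Stmn1 the means were 1.83 ± 0.279 nRPKM in crushed DLKi and 2.20 ± 0.428 nRPKM in uncrushed DLKi retinas, with vehicle means of 1.77 ± 0.200 nRPKM after crush and 1.97 ± 0.356 nRPKM without it. Neither Stmn1 nor Stmn2 had neighbouring groups that were apart.

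The first comparison asked which stathmin transcripts change when the optic nerve is crushed in mice given the DLK inhibitor. Stmn4 rose and Stmn3 fell, while Stmn1 and Stmn2 did not pass the test. Stmn4 was 3.30 times as high in crushed DLKi retinas as in uncrushed DLKi retinas by mean nRPKM, and its fitted log2 change was 1.73 ± 0.14 (SE; 95% interval 1.43 to 2.02; adjusted p = 6.44e-07, edgeR quasi-likelihood test with Benjamini-Hochberg adjustment over all genes tested). By p it was the 18th of 19391 genes. The log2 change of Stmn3 was -0.44 ± 0.12 (95% interval -0.68 to -0.20, edgeR adjusted p = 0.0297). The 2 genes called of 4 stand against 5.33% of all genes tested, 3.29% higher and 2.04% lower.

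The Stmn3 call depended on single libraries. Without uncrushed DLKi replicate 1, 3 or 4 its edgeR adjusted p was 0.0785, 0.0983 or 0.0623, and without crushed DLKi replicate 3, 4 or 5 it was 0.0721, 0.0831 or 0.0753, with log2 changes of -0.44 to -0.37 over these 6 fits. Fitted log2 changes of the members that were not called were -0.18 ± 0.11 for Stmn2 (95% interval -0.40 to 0.05, edgeR adjusted p = 0.535) and -0.25 ± 0.16 for Stmn1 (95% interval -0.59 to 0.08, edgeR adjusted p = 0.568). The interval of Stmn2 reaches to -0.40, so a moderate fall of this transcript is not shown to be absent.

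With vehicle, crush again raised Stmn4, the only member that passed the test. It was 2.64 times as high in crushed vehicle as in uncrushed vehicle retinas by mean nRPKM, with a log2 change of 1.40 ± 0.18 (95% interval 1.03 to 1.77, edgeR adjusted p = 0.000139), the 50th of 19391 genes by p. Called genes made up 2.63% of all genes tested here, 1.77% higher and 0.861% lower. Stmn3 had a log2 change of -0.36 ± 0.15 (95% interval -0.67 to -0.04), which was close in size to its change with the inhibitor but did not pass after adjustment in the fit of group means (edgeR adjusted p = 0.352, n = 3 against 3 with the spread pooled over 16 libraries). Stmn2, the member whose protein is known to be lost from cut axons, had a log2 change of 0.02 ± 0.14 in whole-retina RNA (95% interval -0.27 to 0.31, edgeR adjusted p = 0.997). The change of Stmn1 was -0.17 ± 0.21 (95% interval -0.61 to 0.27, edgeR adjusted p = 0.944), an interval wide enough to hold a moderate change in either direction at this depth.

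The inhibitor lowered Stmn4 in the retinas with crushed nerves. Crushed DLKi retinas held 16.9 ± 3.01 nRPKM of Stmn4 (SD, n = 5) and crushed vehicle retinas 28.5 ± 6.003 nRPKM (SD, n = 3), a ratio of means of 0.592 and a log2 change of -0.76 ± 0.15 (95% interval -1.07 to -0.44, edgeR adjusted p = 0.0287). It was the 65th gene by p, in a comparison where 0.505% of all genes tested were called (0.129% higher and 0.376% lower). The direction held in all settings tried, but the call did not: the adjusted p was 0.128 and the log2 change -0.57 without crushed vehicle replicate 2, the library with the highest Stmn4 level. The adjusted p was 0.0734 without crushed vehicle replicate 1, 0.0505 without crushed vehicle replicate 3, 0.0515 without crushed DLKi replicate 1 and 0.0598 without crushed DLKi replicate 5. Fitted on the crushed libraries alone, the edgeR adjusted p was 0.0755, and limma-trend on log2(nRPKM + 0.1) gave an adjusted p of 0.0518.

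The other members did not pass in crushed retina. Crushed DLKi against crushed vehicle, the log2 change was 0.18 ± 0.13 for Stmn3 (95% interval -0.10 to 0.46, edgeR adjusted p = 0.581), 0.12 ± 0.12 for Stmn2 (95% interval -0.15 to 0.38, edgeR adjusted p = 0.709) and 0.05 ± 0.19 for Stmn1 (95% interval -0.35 to 0.45, edgeR adjusted p = 0.923). Their point estimates were of the opposite sign to that of Stmn4.

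Stmn4 was also lower with the inhibitor where the nerve had not been crushed. Uncrushed DLKi retinas held 5.11 ± 0.353 nRPKM (SD, n = 5) and uncrushed vehicle retinas 10.8 ± 2.23 nRPKM (SD, n = 3), a ratio of means of 0.473 and a log2 change of -1.09 ± 0.16 (95% interval -1.42 to -0.76, edgeR adjusted p = 0.00535). It was the 9th gene of 19391 by p, in a comparison that called 0.629% of all genes tested (0.263% higher and 0.366% lower). This call was kept in every setting tried, with a highest adjusted p of 0.0475. Stmn2 had a log2 change of 0.31 ± 0.12 (95% interval 0.05 to 0.57, edgeR adjusted p = 0.218), Stmn3 of 0.26 ± 0.13 (95% interval -0.02 to 0.54, edgeR adjusted p = 0.330) and Stmn1 of 0.14 ± 0.18 (95% interval -0.25 to 0.52, edgeR adjusted p = 0.737), so none of these 3 passed. The 4 comparisons share groups in pairs, and their values are therefore not independent of each other.

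Whether the crush effect itself differed between inhibitor and vehicle was tested as the difference of the 2 crush effects. For Stmn4 this difference was 0.33 ± 0.22 on the log2 scale (95% interval -0.14 to 0.80, unadjusted p = 0.153, edgeR adjusted p = 1.00) and was not called. The scale sets its sign: the ratio of means was 3.30 with the inhibitor and 2.64 with vehicle, whereas the difference of means was 11.8 nRPKM with the inhibitor and 17.7 nRPKM with vehicle. The means of inhibitor retinas differed from those of vehicle retinas by -11.7 nRPKM where the nerve was crushed and by -5.70 nRPKM where it was not. For Stmn1, Stmn2 and Stmn3 the differences of crush effects were -0.08 ± 0.26, -0.20 ± 0.17 and -0.08 ± 0.19, with 95% intervals of -0.64 to 0.47, -0.56 to 0.17 and -0.48 to 0.31. Of all genes tested, edgeR called 2 (0.0103%), neither of them a stathmin, while 298 had an unadjusted p under 0.05 and DESeq2 called 5.

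**Figure D3:**
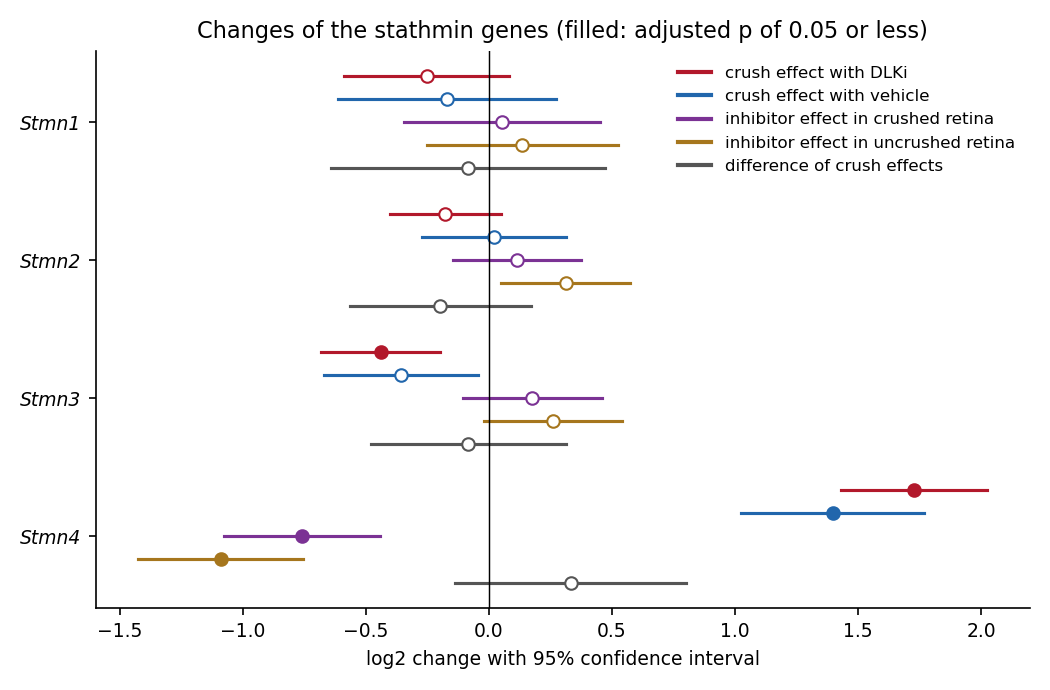
Fitted log2 change of each stathmin gene (x axis, point with 95% confidence interval) for both crush effects, both inhibitor effects and the difference of the crush effects, with filled points for an adjusted p of 0.05 or less. Stmn4 lies at 1.73 and 1.40 for crush and at -0.76 and -1.09 for the inhibitor, all filled, and the only other filled point is Stmn3 at -0.44 for crush with the inhibitor.

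Per transcript length, the summed level of the family moved less in proportion than the share of Stmn4 in it. The summed nRPKM of the 4 genes averaged 151 ± 18.5 in crushed DLKi and 179 ± 25.3 in uncrushed DLKi retinas, and 149 ± 22.9 in crushed vehicle and 154 ± 20.2 in uncrushed vehicle retinas. Within that sum the Stmn4 share was 8.39% to 13.5% in crushed DLKi and 2.28% to 3.32% in uncrushed DLKi retinas, and 18.3% to 20.2% in crushed vehicle and 6.34% to 7.47% in uncrushed vehicle retinas. No pair of groups overlapped in this share, including crushed DLKi and uncrushed vehicle, whose Stmn4 levels did. The Stmn3 share was 60.3% to 64.9% in crushed DLKi and 70.7% to 73.8% in uncrushed DLKi retinas, and 54.4% to 57.6% in crushed vehicle and 68.8% to 70.6% in uncrushed vehicle retinas. A share must fall where another rises, so the Stmn3 and Stmn4 shares are not separate observations. Stmn2 stayed between 21.9% and 26.2% of the sum and Stmn1 between 0.885% and 1.55% in all 16 libraries. These shares are a description, without a test.

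**Figure D4:**
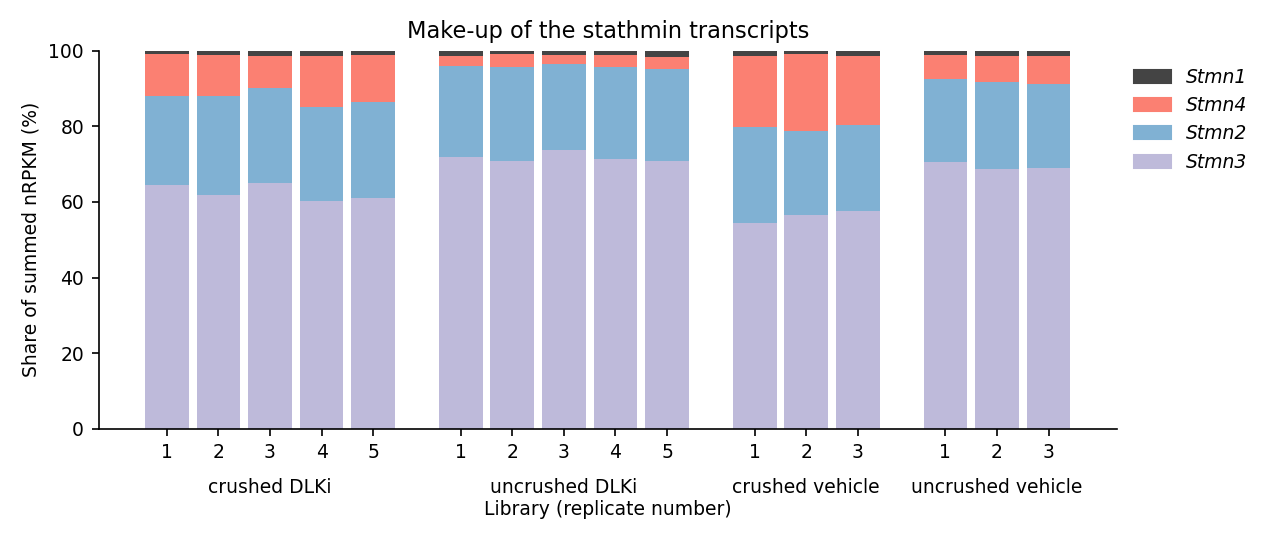
Share of each stathmin gene in the summed nRPKM of the 4 genes (y axis, percent), 1 bar per library, grouped as crushed DLKi, uncrushed DLKi, crushed vehicle and uncrushed vehicle. The Stmn4 segment takes 8.39% to 13.5% in crushed DLKi against 2.28% to 3.32% in uncrushed DLKi retinas, and 18.3% to 20.2% in crushed vehicle against 6.34% to 7.47% in uncrushed vehicle retinas.

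Across the 16 libraries Stmn2 and Stmn3 varied together, with Pearson's r of 0.809 between their log2 CPM (the count scaled to library size) and 0.902 once the group means were taken out. Stmn4 ran against both over all libraries (r = -0.698 with Stmn3 and -0.352 with Stmn2), but with the group means taken out it ran with them (r = 0.482 and 0.613). Libraries of a group share an injury and drug state, so the first set of coefficients carries the group differences and the second the variation between libraries of 1 group. Stmn1 had r of 0.529 with Stmn2, 0.555 with Stmn3 and -0.430 with Stmn4, and of 0.448, 0.373 and 0.0076 with the group means taken out. No p is given for these coefficients, which describe 16 libraries of 1 tissue that also differ in depth.

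Among the 12155 genes with a symbol and a mean of at least 5 CPM, those whose log2 values were most like Stmn4 were Jun (r = 0.977), Crem (0.950), Marveld3 (0.942), Tnfrsf12a (0.940) and Atf3 (0.938). Jun, Crem and Atf3 encode transcription factors of the basic leucine zipper class, and Tnfrsf12a encodes the receptor Fn14. With the group means taken out, r with Stmn4 was 0.785 for Jun, 0.569 for Tnfrsf12a, 0.456 for Marveld3, 0.439 for Atf3 and 0.248 for Crem. The genes most like Stmn3 were Ldhb (0.984), Tango2 (0.972), Calm2 (0.970), Ttc9b (0.966) and Dstn (0.959), and for Ldhb r was still 0.965 without the group means. For Stmn2 the list was Ptpa (0.937), Tuba1a (0.926), Mllt11 (0.925), Abhd12 (0.923) and Ppp1r21 (0.921). Tuba1a encodes an alpha-tubulin, part of the tubulin dimers that stathmins bind, and its r with Stmn2 was 0.969 within groups. Stmn1 had no close match, its highest coefficient being 0.770 with Tinagl1.

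The molecules that stathmins act on or are controlled by were examined as 5 lists: tubulins, microtubule-binding proteins, plus-end, severing and depolymerising proteins, tubulin-modifying enzymes, and kinases known to phosphorylate stathmins. Of 60 microtubule genes in the first 4 lists, all tested, 4 rose and 6 fell with crush under the inhibitor, against 5.33% of all genes called. With vehicle 3 rose and 2 fell, against 2.63% of all genes. Their median log2 change was -0.05 with the inhibitor and 0.00 with vehicle, against medians of 0.00 and 0.00 over all genes. With the inhibitor 0 of the 60 passed edgeR's test in crushed retina, where 11 had an unadjusted p under 0.05 and DESeq2 called 2. In uncrushed retina 0 passed, 16 had an unadjusted p under 0.05 and DESeq2 called 4. Over all 19391 genes, 2665 in crushed and 3349 in uncrushed retina had an unadjusted p under 0.05, and DESeq2 called 418 and 625. Since edgeR called 0.505% of all genes in crushed and 0.629% in uncrushed retina, its 0 of 60 is at the background. With the inhibitor the 12 tubulins had 10 positive and 2 negative changes in each. Their median log2 changes were 0.22 and 0.29, against 0.01 and 0.01 over all genes. Of the 12, 4 had an unadjusted p under 0.05 and DESeq2 called 1 in crushed retina. In uncrushed retina these counts were 7 and 3. This lean was not particular to tubulins. Amacrine cell markers had 6 positive and 2 negative changes in crushed retina (median 0.17) and 8 and 0 in uncrushed retina (0.23). Bipolar cell markers had 5 and 1 (0.12) and 6 and 0 (0.16). Uncrushed vehicle libraries also spread widely in some tubulins, with Tubb3 at 36.6 to 65.1 nRPKM and Tubb4a at 49.0 to 98.6 nRPKM.

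Of 12 alpha and beta tubulins, 2 rose and 3 fell with crush under the inhibitor (all genes 3.29% higher and 2.04% lower), and 2 rose and 1 fell with vehicle (all genes 1.77% and 0.861%). Tubb6 averaged 3.90 ± 0.759 nRPKM in crushed DLKi and 2.45 ± 0.0932 nRPKM in uncrushed DLKi retinas (log2 change 0.67 ± 0.12, edgeR adjusted p = 0.00143), and its change with vehicle was 0.94 ± 0.15 (adjusted p = 0.00167). Tubb2b, a beta-tubulin of developing neurons, had log2 changes of 0.77 ± 0.15 with the inhibitor (edgeR adjusted p = 0.00468) and 0.86 ± 0.20 with vehicle (adjusted p = 0.0246). The named tubulins that fell were more abundant per length than those that rose. Tuba4a averaged 31.6 ± 1.44 nRPKM in crushed DLKi and 46.9 ± 3.97 nRPKM in uncrushed DLKi retinas (log2 change -0.57 ± 0.08, edgeR adjusted p = 0.000210), with -0.51 ± 0.10 under vehicle (adjusted p = 0.00862). Tubb3, the neuronal beta-tubulin used as a ganglion cell marker, had 41.2 ± 4.40 nRPKM in crushed DLKi and 73.6 ± 10.9 nRPKM in uncrushed DLKi retinas (log2 change -0.83 ± 0.15, edgeR adjusted p = 0.00164) and did not pass with vehicle (-0.69 ± 0.19, adjusted p = 0.0658). Single libraries decided 2 of the vehicle calls. Without uncrushed vehicle replicate 3 the Tuba4a adjusted p was 0.0621, and for Tubb2b it was 0.126, 0.0987, 0.0890 and 0.0534 without crushed vehicle replicate 1 or 2 or uncrushed vehicle replicate 1 or 2.

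Among 19 microtubule-binding proteins 0 rose and 2 fell under the inhibitor, and 0 rose and 1 fell with vehicle, against the same all-gene shares of 2.04% and 0.861% lower. Tppp3, a tubulin polymerisation-promoting protein, held 7.77 ± 1.10 nRPKM in crushed DLKi and 18.7 ± 3.52 nRPKM in uncrushed DLKi retinas (log2 change -1.26 ± 0.13, edgeR adjusted p = 9.73e-06). Its change with vehicle was -1.25 ± 0.17 (edgeR adjusted p = 0.000248), of similar size to the rise of Stmn4 with vehicle (1.40). Under the inhibitor Stmn4 rose by a larger log2 amount (1.73) than that by which Tppp3 fell. Dpysl5, of the collapsin response mediator proteins, had a log2 change of -0.38 ± 0.09 under the inhibitor (edgeR adjusted p = 0.0193), which became 0.0501, 0.0511 and 0.0510 without crushed DLKi replicate 1 or 2 or uncrushed DLKi replicate 2. Of 15 plus-end, severing and depolymerising proteins 1 was called, a share near the 5.33% of all genes: Mapre3, under the inhibitor (log2 change -0.25 ± 0.07, edgeR adjusted p = 0.0356), and the call was lost without crushed DLKi replicate 1, 2, 3 or 4 or uncrushed DLKi replicate 3, 4 or 5, with adjusted p of 0.0581 to 0.106. Of 14 tubulin-modifying enzymes 2 rose under the inhibitor and 1 with vehicle, against 3.29% and 1.77% of all genes. Agtpbp1, a deglutamylase that trims tubulin's glutamate side chains, had log2 changes of 0.67 ± 0.09 under the inhibitor (edgeR adjusted p = 0.000120) and 0.73 ± 0.11 with vehicle (adjusted p = 0.000965). Ttll5, a glutamylase, had 0.26 ± 0.05 under the inhibitor (adjusted p = 0.00276). With vehicle edgeR did not call Ttll5, Dpysl5 or Mapre3. Their means in crushed and uncrushed vehicle retinas were 8.46 and 7.19 nRPKM for Ttll5, 7.06 and 8.60 nRPKM for Dpysl5, and 82.3 and 91.5 nRPKM for Mapre3.

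Of 11 kinases known to phosphorylate stathmins 0 rose and 3 fell with crush under the inhibitor, against 2.04% of all genes lower. With vehicle edgeR called 0 of them (all genes 2.63%). Of the 11, 4 had an unadjusted p under 0.05 with vehicle and DESeq2 called 0, against 2017 and 720 of all 19391 genes. The 3 JNK genes did not move alike. Mapk10 (JNK3), the neuronal form, had a log2 change of -0.45 ± 0.10 (edgeR adjusted p = 0.0118) and Mapk9 (JNK2) of -0.26 ± 0.05 (adjusted p = 0.00567) under the inhibitor, whereas that of Mapk8 (JNK1) was 0.01 ± 0.05 (95% interval -0.10 to 0.11, adjusted p = 0.975). With vehicle the changes were -0.35 ± 0.13 for Mapk10, -0.20 ± 0.07 for Mapk9 and -0.01 ± 0.06 for Mapk8, none of which passed (edgeR adjusted p = 0.256, 0.170 and 0.995). Camk2a, the other call under the inhibitor, had -0.36 ± 0.10 (edgeR adjusted p = 0.0385), and the call was lost without any 1 of the 5 crushed DLKi libraries or uncrushed DLKi replicate 1, 2, 3 or 4, with adjusted p of 0.0583 to 0.114. For the inhibitor edgeR and DESeq2 each called 0 of the 11 kinases, and with 0.505% and 0.629% of all genes called by edgeR this is at the background. An unadjusted p under 0.05 was reached by 0 of the 11 in crushed and 3 in uncrushed retina, against 2665 and 3349 of all 19391 genes. These are transcript levels of the kinases, not their activity.

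**Figure D5:**
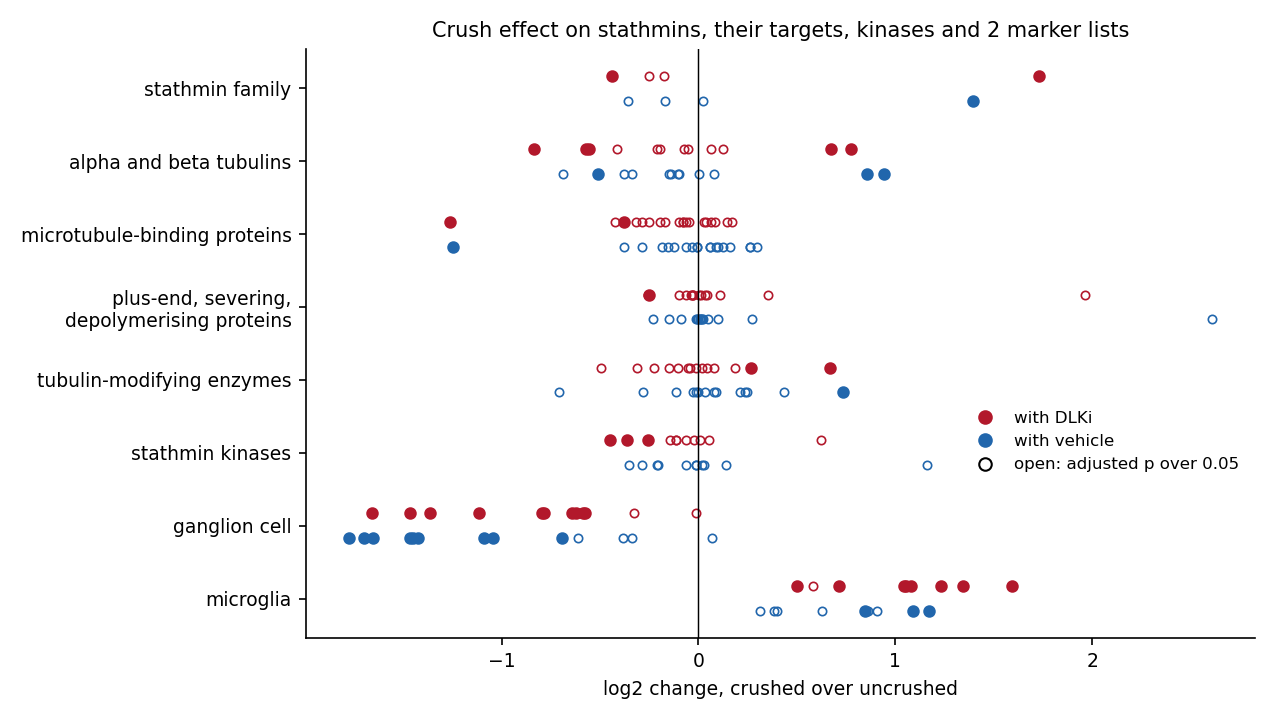
Log2 change, crushed over uncrushed (x axis), of each tested gene of 8 lists (rows), with the inhibitor (upper points of a row) and with vehicle (lower points), filled where the adjusted p is 0.05 or less. In the stathmin row Stmn4 stands at 1.73 with the inhibitor and 1.40 with vehicle, apart from Stmn1, Stmn2 and Stmn3 between -0.44 and 0.02, while 10 of 13 ganglion cell markers under the inhibitor and 9 with vehicle are filled below 0.

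Cell markers that moved with crush are given beside these results. Rod markers summed to 13253 to 16614 nRPKM over all 16 libraries, as a retina dominated by photoreceptors has, and no marker gene of ganglion cells, the cells whose axons were crushed, was at 0 in any library. Of 13 ganglion cell markers 10 fell with crush under the inhibitor and 9 with vehicle, and 0 rose in either, where 2.04% and 0.861% of all genes fell. Their summed level was 337 to 408 nRPKM in crushed DLKi and 522 to 698 nRPKM in uncrushed DLKi retinas, and 262 to 369 nRPKM in crushed vehicle and 423 to 585 nRPKM in uncrushed vehicle retinas, so that crushed retinas were below uncrushed ones where Stmn3 was low and Stmn4 high. In bulk retina, fewer cells of a type and less RNA per cell cannot be told apart, which applies to Stmn3 and to every neuronal gene above. With the inhibitor in crushed retina 3 ganglion cell markers rose, Isl2, Pou4f1 and Pou4f2, and 0 fell, where 0.129% of all genes rose and Stmn4 fell. In uncrushed retina, where Stmn4 fell too, the inhibitor gave 0 edgeR calls among these 13 (all genes 0.629%) and 0 DESeq2 calls (625 of all 19391 genes). Of the 13, 4 had an unadjusted p under 0.05 there, against 3349 of all genes, and all 13 changes were positive (median log2 change 0.30). All 8 amacrine and all 6 bipolar cell marker changes were positive there too (medians 0.23 and 0.16). Rod markers had 4 positive and 4 negative changes there, and cone markers 2 and 4. Of 9 microglial markers 8 rose with crush under the inhibitor and 3 with vehicle (all genes 3.29% and 1.77%), summing to 43.8 to 82.0 nRPKM in crushed DLKi and 30.5 to 43.5 nRPKM in uncrushed DLKi retinas, and to 55.7 to 68.6 nRPKM in crushed vehicle and 37.5 to 39.4 nRPKM in uncrushed vehicle retinas. For the inhibitor edgeR and DESeq2 called 0 of these 9 in crushed and in uncrushed retina, with 0 at an unadjusted p under 0.05. Over all genes edgeR called 0.505% and 0.629% there, and 2665 and 3349 of 19391 had an unadjusted p under 0.05. All 9 changes were negative in uncrushed retina (median -0.19).

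Genes of proliferating cells, a setting in which Stmn1 is known to be abundant, rose with crush, 4 of 9 tested under the inhibitor and 3 of 9 with vehicle (all genes 3.29% and 1.77%), while Stmn1 did not pass. Their sum over all 10 listed was 12.2 to 16.2 nRPKM in crushed DLKi and 11.5 to 20.3 nRPKM in uncrushed DLKi retinas, and 13.1 to 16.4 nRPKM in crushed vehicle and 11.6 to 17.1 nRPKM in uncrushed vehicle retinas. That sum is mostly Ccna2 (9.44 to 17.8 nRPKM over the 16 libraries), whereas the called Top2a, Mki67, Aurkb and Rrm2 were each at most 0.452 nRPKM. Lens markers ranged widely: 5 genes summed to 1.67 to 17.3 nRPKM in crushed DLKi and 9.65 to 462 nRPKM in uncrushed DLKi retinas, and to 0.259 to 14.6 nRPKM in crushed vehicle and 0.330 to 208 nRPKM in uncrushed vehicle retinas, with 3 of 5 at 0 in at least 1 library and 3 of 5 called lower with crush under the inhibitor (all genes 2.04%). With vehicle all 5 changes were negative too (median log2 change -3.96). There edgeR called 0 of the 5 (all genes 2.63%) and DESeq2 1 (720 of 19391 genes). All 5 had an unadjusted p under 0.05 with vehicle, against 2017 of all genes. Under the inhibitor 1 of 4 horizontal cell markers fell with crush, Calb1 (all genes 2.04%), while the other 3 changes were positive. Of 6 Müller glia markers 1 rose, Clu (all genes 3.29%), in a list with 3 positive and 3 negative changes. Amacrine, bipolar, rod, cone and oligodendrocyte markers, 31 tested, gave 0 edgeR calls in all 4 comparisons. Over all genes edgeR called 0.505% to 5.33% per comparison, so 0 of 31 is near the background. Of the 31, 2 to 5 per comparison had an unadjusted p under 0.05, against 2017 to 3349 of all 19391 genes. DESeq2 called 0 to 3 of them, against 418 to 1317 of all genes. The part of these markers in the stathmin results was not tested.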

How the data were processed

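Whole-retina RNA was converted to TruSeq v2 libraries and sequenced as 50-base single reads, per the labels' protocols. The authors' deposited tables give a count of uniquely aligned reads and an nRPKM value per Entrez gene for each library. Per the submitters' processing notes the aligner was GSNAP and the build GRCm38. The kit does not mark strand, and no source used here names the counter. The deposited nRPKM (RPKM adjusted by a size factor per library) was used for levels. Counts were tested with edgeR 4.0.16 (R 4.3.3): filterByExpr, TMM factors of 0.973 to 1.02, quasi-likelihood fit of 4 group means on 16 libraries (12 residual degrees of freedom), Benjamini-Hochberg adjustment over 19391 genes, calls at an adjusted p of 0.05 or less. Symbols came from RefSeq (31049 of 36528 identifiers matched, with all 4 stathmins) and sequences from GENCODE M21 on GRCm38; each gene is shown by the transcript paired with its lowest-numbered RefSeq mRNA. Alternatives were another normalization, no filter, DESeq2 1.42.0, limma 3.58.1, left-out libraries and, chosen after seeing the data, a replicate block. Members and gene lists were chosen with earlier results of these data known. From other lists the text names up to 4 called genes with the smallest p per crush comparison and the JNK genes.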

Additional observations from a re-analysis of the deposited data

How the results depend on the processing

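Each comparison was refitted under 8 or 9 other settings and 16 times with 1 library left out. Stmn4 kept its direction throughout and its calls for crush with the inhibitor (log2 1.53 to 1.84), crush with vehicle (1.20 to 1.53) and the inhibitor in uncrushed retina (-1.24 to -0.93). Leaving out 1 library gave 1 to 2 stathmin genes called for crush with the inhibitor (the change being Stmn3), with 748 to 1258 all-gene calls. For the inhibitor in crushed retina it gave 0 to 1 stathmin genes called. That last count was also 0 under limma-trend on log2(nRPKM + 0.1), where all-gene calls were 93. It was 0 on the compared groups alone, where all-gene calls were 45 against 98. Changes that were not called turned sign in 9 fits. Without 1 library they ranged from -0.091 to 0.12 for Stmn2 with crush under vehicle, -0.037 to 0.12 for Stmn1 with the inhibitor in crushed retina, -0.19 to 0.045 for the difference of crush effects of Stmn1 and -0.15 to 0.064 for that of Stmn3, and without both shallowest vehicle libraries the difference for Stmn1 was 0.077. The causes were not tested. Microtubule genes called for crush with the inhibitor numbered 16 instead of 10 on the compared groups alone and without both shallowest vehicle libraries. All-gene calls moved too, to 1201 of 18404 and 1378 of 19638, against 1034 of 19391. With vehicle, microtubule calls were 3 instead of 5 on the compared groups alone and 8 without uncrushed vehicle replicate 1. All-gene calls there were 281 of 18669 and 506 of 19704, against 510 of 19391. For the inhibitor DESeq2 called 418 genes in crushed and 625 in uncrushed retina, against 98 and 122 by edgeR, and the compared groups alone gave 3 in uncrushed retina. Leaving out 1 library gave 22 (without crushed vehicle replicate 1) to 144 (without uncrushed vehicle replicate 1) calls over all genes for the inhibitor in crushed retina, and 17 (without uncrushed vehicle replicate 2) to 205 (without uncrushed DLKi replicate 5) in uncrushed retina, and crush with vehicle had 276 to 506 (276 without crushed vehicle replicate 1) against 510. The labels do not state which retinas came from 1 mouse, but the titles carry consecutive library numbers that join each crushed retina to an uncrushed one of the same drug, 8 pairs in all. In 7 of 8 pairs the deviations from the group means correlated by more than 0.1 (0.29 to 0.69, with 0.055 in the eighth), and 6 of 8 crushed retinas correlated best with their own partner, a hint from the data and not from the design. A replicate block on these pairs, chosen after seeing the data, raised the calls over all genes to 2080 instead of 1034 for crush with the inhibitor and 1234 instead of 510 with vehicle, and those among the microtubule genes to 18 and 15. With vehicle it called 2 stathmin genes instead of 1, adding Stmn3 (log2 change -0.36, edgeR adjusted p = 0.0183); with the inhibitor Stmn3 had an adjusted p of 0.000400. The block changed no other stathmin call, and the inhibitor comparisons cannot be fitted with it because each pair has 1 drug. With 43 to 115 counts per library, Stmn1 has the widest intervals of the family.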
